A study of Mus musculus with 2 samples.

Results

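The genes described here encode the 5 subunits of the muscle nicotinic acetylcholine receptor: Chrna1, Chrnb1, Chrnd, Chrng and Chrne, which make the alpha, beta, delta, gamma and epsilon subunit. They are 5 of the 21911 protein-coding genes of the annotation, chosen by name. All 5 were found in it, and 24 open sites in any of the deposited lists were assigned to them. Open chromatin was mapped with DNase-seq in gastrocnemius tissue, a muscle of the calf, from female B6CASTF1/J mice at 14 days of age. These animals are the F1 cross of C57BL/6J with CAST, and the label of each sample names 3 females. The study has 1 group of 2 biological replicates, with separate biosamples under the same donor record, so there is no treated, denervated or fetal group and no test between conditions. All values below are given for replicate 1 and then replicate 2, and the spread between them may be technical.

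The receptor is a pentamer in the muscle membrane under the motor nerve ending, where it opens a cation channel when acetylcholine binds. Fetal muscle builds it from alpha, beta, delta and gamma subunits, and after birth the epsilon subunit takes the place of gamma. Before innervation, myogenic factors such as MyoD and myogenin drive the subunit genes through E-boxes. In innervated fibres, transcription is concentrated in the few nuclei beneath the synapse, where nerve signals act through ETS factors such as GABP on a short element called the N-box. DNase-seq reads openness of the DNA, not RNA. In a whole muscle, a site open in few nuclei and a site weakly open in many cannot be told apart.

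The sequences before the transcript starts are shown because they carry the E-boxes and N-boxes of the family. Each is written 5′ to 3′ on the strand of its gene, from the C57BL/6J reference (GRCm38, the mm10 build of the files), and the CAST allele of these animals may differ from it. Capitals mark exact matches on either strand to CAGCTG (the E-box preferred by MyoD and myogenin), CCGGAA (the core of the N-box), CATTCC (the TEAD site) or GGGCGG (the SP/KLF site). For Chrna1, Chrnd, Chrne and Chrnb1 the stretch is the part of the open site at the principal start, the start of the gene's main coding transcript, that lies before the transcripts beginning there. For Chrng, which had no open site at its principal start, it is the 200 bp before that start.
Chrna1 (chr2:73580339-73580460, minus strand): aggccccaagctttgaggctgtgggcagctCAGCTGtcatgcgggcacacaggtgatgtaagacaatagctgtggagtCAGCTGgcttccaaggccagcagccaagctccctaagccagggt
Chrng (chr1:87205610-87205809, plus strand): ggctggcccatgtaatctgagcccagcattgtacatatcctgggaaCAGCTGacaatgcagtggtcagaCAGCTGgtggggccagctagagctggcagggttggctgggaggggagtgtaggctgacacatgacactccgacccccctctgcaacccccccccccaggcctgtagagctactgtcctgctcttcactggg
Chrnd (chr1:87190525-87190606, plus strand): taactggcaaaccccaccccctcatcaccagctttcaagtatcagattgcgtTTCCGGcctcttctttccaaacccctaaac
Chrne (chr11:70619221-70619420, minus strand): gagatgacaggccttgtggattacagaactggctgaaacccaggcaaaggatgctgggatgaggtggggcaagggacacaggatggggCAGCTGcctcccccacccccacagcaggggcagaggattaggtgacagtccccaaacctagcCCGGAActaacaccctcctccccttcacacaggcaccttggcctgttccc
Chrnb1 (chr11:69795944-69796040, minus strand): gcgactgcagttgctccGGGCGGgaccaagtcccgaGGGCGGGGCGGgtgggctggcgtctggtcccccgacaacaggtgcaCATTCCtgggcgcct
Chrna1 and Chrng each held 2 copies of CAGCTG in the 200 bp before the principal start. Such a pair was present before 0.862% of the protein-coding genes, and at least 1 copy before 10.1%. Chrne held 1 copy, and Chrnb1 and Chrnd held none. E-boxes of the wider form CANNTG, with N any base, were also searched. They lay at 21, 88 and 111 bp before the start of Chrnb1 and at 21 bp before that of Chrnd. This form was present before 55.1% of all genes and is not in capitals above. CCGGAA lay before the starts of Chrnd and Chrne, the delta and epsilon genes, and before 12.5% of all genes. Chrnb1 stood apart in its letters, with 3 copies of GGGCGG, a number reached by 9.33% of genes. It also had 11 CpG dinucleotides in those 200 bp, against 3 in Chrna1, 3 in Chrnd, 1 in Chrng, 1 in Chrne and a median of 7 over all genes.

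The 5 genes differed widely in openness at their promoters. A promoter site here is a peak whose midpoint lies within 1000 bp of any annotated start of the gene, and its signal is the authors' value per peak, whose scaling is not stated. A shared site is a merged peak that holds a strict peak of both replicates. Chrna1, Chrnb1 and Chrne had a shared promoter site, which is 3 of 5 genes (60%) where 63.7% of all protein-coding genes had one. The longer permissive lists added Chrnd, giving 4 of 5 against 68.1% of all genes. In the strict list of replicate 1 alone all 5 had a promoter peak (background 65.4%), and in that of replicate 2 alone 3 did (background 64.8%). The share of members was near the background for shared sites and above it in replicate 1 alone, where the peaks of Chrnd and Chrng had no strict partner in replicate 2.

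The beta gene, Chrnb1, had the strongest promoter peak. It measured 14.3 in replicate 1 and 12.5 in replicate 2, above that of 76.1% and 76.7% of the genes with a promoter peak. Chrnb1 was the 1 member above the medians over those genes, 7.69 and 7.04. The strongest promoter peak of Chrne, the adult epsilon gene, measured 2.85 and 2.82 (percentiles 22.7 and 22.6), but the 2 values come from different sites of the gene. That of Chrna1, which encodes the subunit carrying the main acetylcholine contacts, measured 1.64 and 1.27 (percentiles 12.9 and 8.89). That of Chrnd, the delta gene, measured 1.15 in the strict list of replicate 1 (percentile 7.83) and 1.06 in the permissive list of replicate 2. Chrng, the fetal gamma gene, had 1 strict peak of 0.643 in replicate 1 (percentile 2.00) and no promoter peak of either list in replicate 2. Chrnb1 was thus far above the other 4 genes in both replicates.

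At the principal starts themselves the order was closer. The site within 200 bp of the start had a signal of 2.15 ± 0.21 (SD, n = 2) at Chrnb1, 2.13 ± 1.03 at Chrne, 1.45 ± 0.26 at Chrna1 and 1.10 ± 0.07 at Chrnd, with the permissive value of Chrnd in replicate 2. There was no such site at Chrng. The replicate ranges of Chrnb1 and Chrne overlapped, and so did those of Chrne and Chrna1. Both values of Chrnd lay below both values of Chrna1, although the gap between the nearest of them was smaller than the difference between the replicates of Chrna1.

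**Figure D1:**
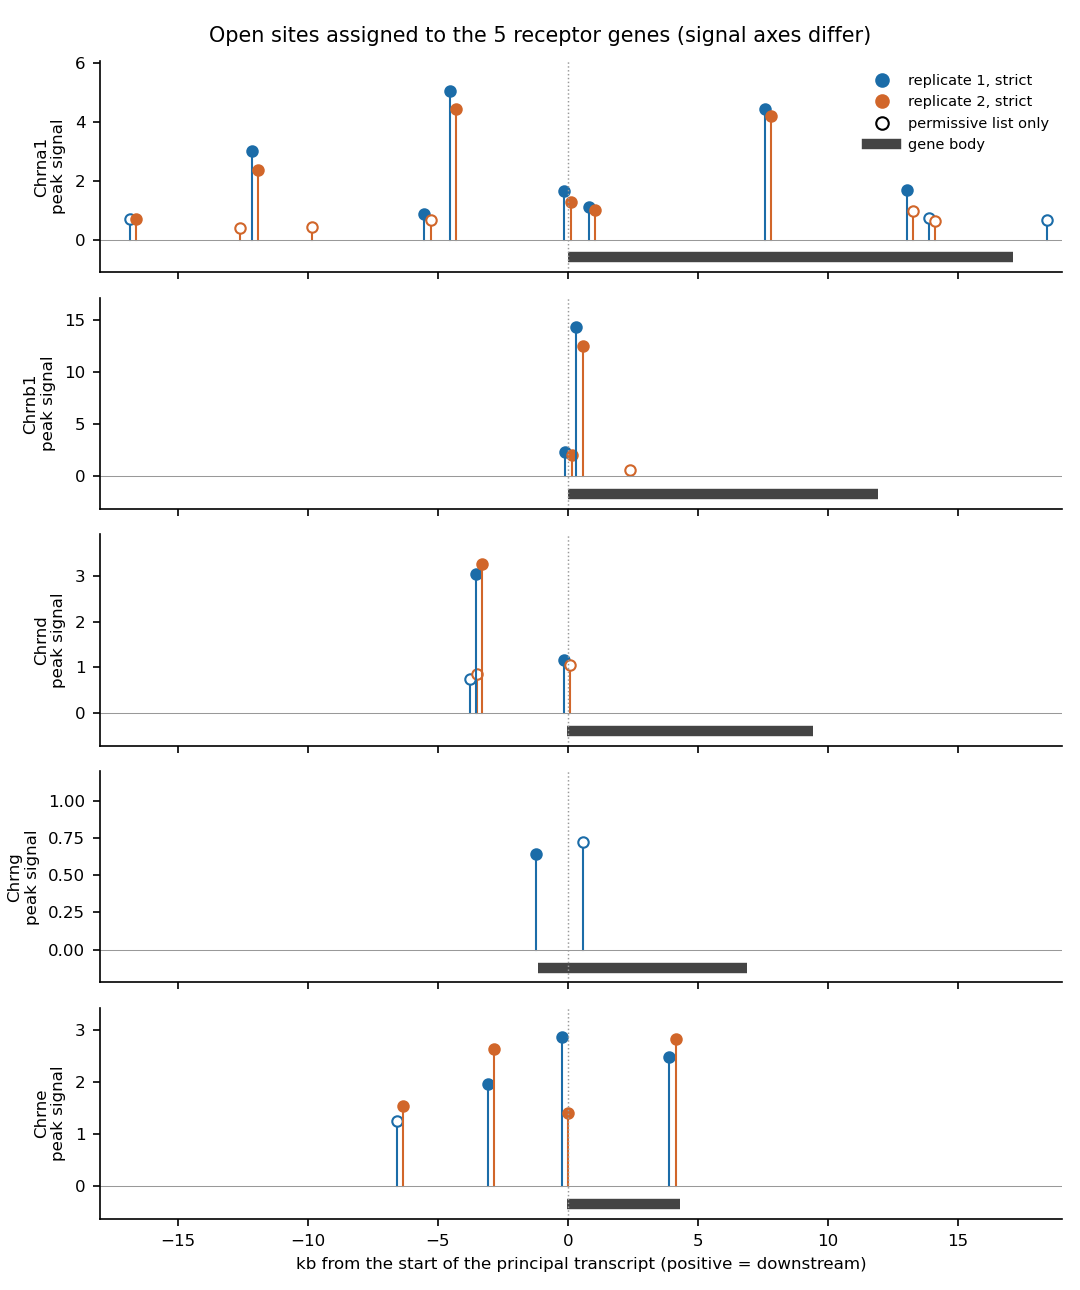
Deposited peak signal (vertical axis, a separate scale for each gene) of all 24 sites of the 5 genes by distance from the principal start in kb, with replicate 1 drawn slightly left and replicate 2 slightly right of the site. Filled points are strict peaks, open points peaks of the permissive list only, and grey bars the genes; Chrnb1 is open in a pair of sites near its start, Chrna1 on both sides of its start and along the gene, and Chrng has no point at its start.

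The per-base files list a false discovery rate (FDR) of the local cut rate wherever it is below 0.05, so they show openness without a peak call. Of the 201 bases within 100 bp of the principal start, 100% were listed at Chrna1 and at Chrnb1 in both replicates. At Chrnd 85.6% and 78.1% were listed, and at Chrne 65.7% and 50.7%. At Chrng 0% were listed in both replicates. Over all protein-coding genes, 66.9% and 66.6% had at least 1 such base within 100 bp of any annotated start. By that wider measure Chrng passed in replicate 1, through the start of an alternative transcript, where the smallest FDR was 7.03e-06. The principal start of the gamma gene therefore differed from the starts of the other 4 subunits in both replicates, also in the per-base values. These come from the same libraries as the peaks and are not an independent measure.

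**Figure D2:**
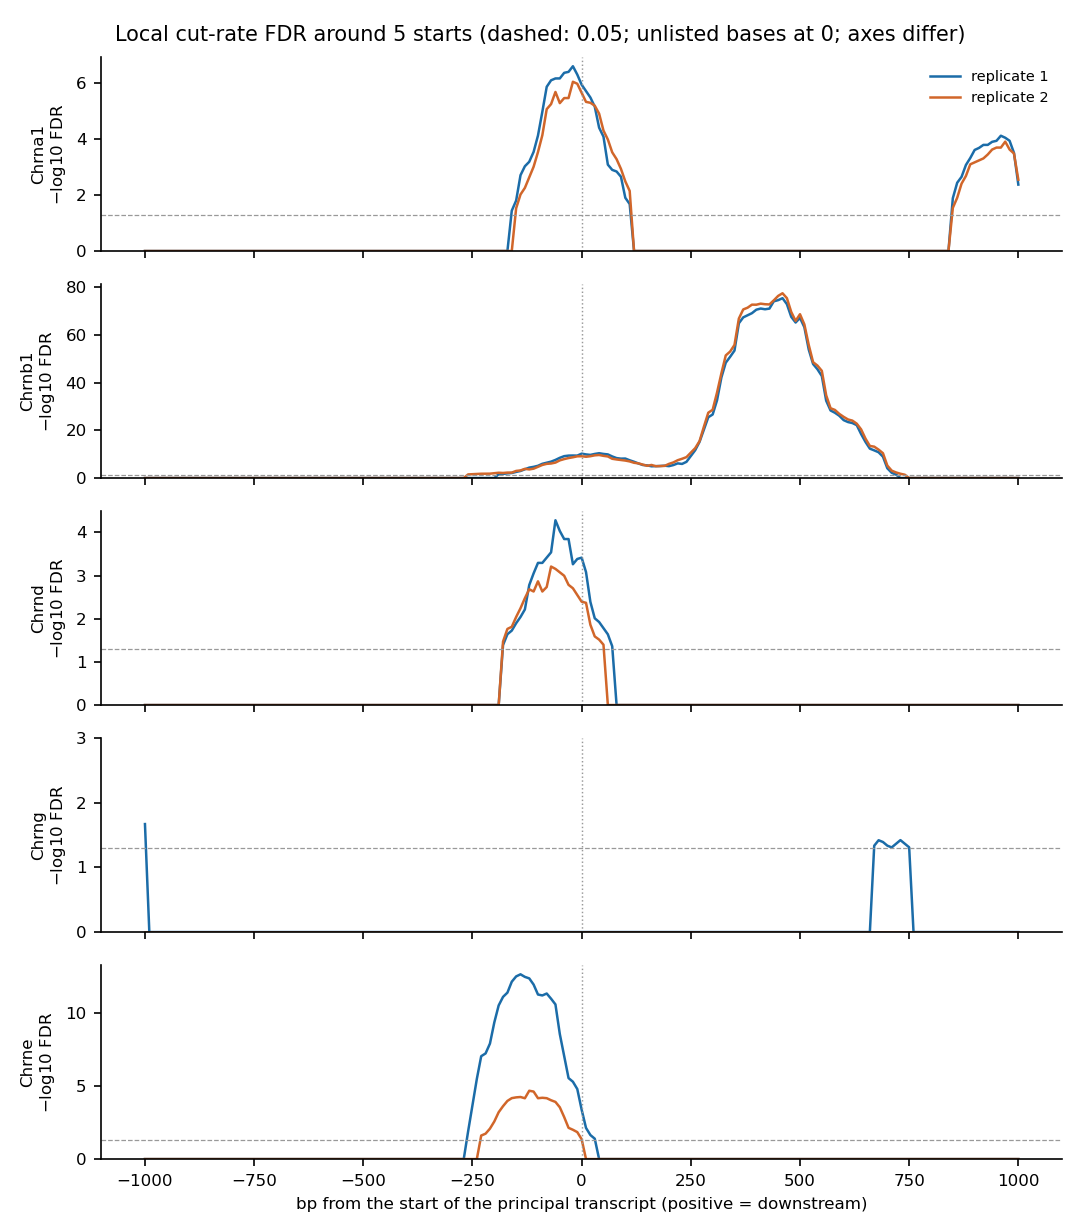
Deposited per-base FDR of the cut rate, as −log10 on the vertical axis (separate scales), from 1 kb before to 1 kb after the principal start of each gene, read every 10 bp, with blue for replicate 1 and orange for replicate 2. Chrna1, Chrnb1, Chrnd and Chrne rise at the start in both replicates, the line of Chrng stays at the floor there, and the summit of Chrne is lower in replicate 2.

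Chrng (chr1:87204657-87212694, plus strand) lies downstream of Chrnd in the same orientation, with 13.8 kb from the last annotated start of Chrnd to its own first. Its only strict peak, in replicate 1, was at chr1:87204608-87204760, over the start of an alternative coding transcript and 1127 bp before the principal start. A second peak of replicate 1, at 0.721 and in the permissive list only, lay 710 bp after the principal start. Within 1 kb of that start 97 bases (4.85%) had an FDR below 0.05 in replicate 1 and 0 in replicate 2. Chrng had no distal site in any list. The E-box pair printed above, at 152 and 129 bp before the start, lay in unlisted bases of both replicates, whereas the pair of Chrna1, at 90 and 42 bp, lay inside a shared open site. On the far side is Eif4e2, a cap-binding protein gene, with its next start 7.84 kb from the last annotated start of Chrng. The promoter of Eif4e2 measured 17.8 and 14.1. Chrng thus had lower values than the gene on either side.

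Chrnd (chr1:87190607-87200070, plus strand) had a small site over its start at chr1:87190525-87190650. The smallest FDR in it was 5.22e-05 in replicate 1 and 0.000582 in replicate 2, and the strict list of replicate 2 did not hold the site. The N-box at 57 bp before the start overlapped a footprint, a short stretch protected from cutting, in replicate 1 and none in replicate 2. The whole site held 3 footprints in replicate 1 and 0 in replicate 2, so the absence is not particular to the N-box. A stronger site of this gene lay 3.43 kb upstream, with signals of 3.04 and 3.26, both above those at the start. It lies inside Prss56, a serine protease gene whose own promoter had no strict peak, and 63 bp of it are coding sequence of that gene. It therefore counts for Chrnd by distance alone. A permissive peak next to it, 3.64 kb upstream, measured 0.742 and 0.844.

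Chrne (chr11:70614883-70619216, minus strand), the adult subunit gene, had shared strict sites at 3 places. The site at its start, chr11:70619221-70619420, measured 2.85 in replicate 1 and 1.40 in replicate 2. The smallest FDR within 1 kb of the start was 1.97e-13 in replicate 1 and 2.06e-05 in replicate 2, and of the shared sites of the family this one differed most between the replicates. The site 2.97 kb upstream measured 1.96 and 2.64, and the site at the 3′ end, 4.02 kb after the start over exons 11 and 12, measured 2.47 and 2.82. Both ran the other way, higher in replicate 2. The site at the 3′ end counts as a promoter site because transcripts with a retained intron start near it, and the start of the overlapping gene 4930544D05Rik is also within 1 kb. Without those retained-intron starts the promoter signal of Chrne is the 2.85 and 1.40 of its own start. A further site 6.47 kb upstream, beside the start of the noncoding gene Gm12315, measured 1.26 in the permissive list of replicate 1 and 1.55 in the strict list of replicate 2. Neither the E-box at 136 bp nor the N-box at 74 bp before the start of Chrne overlapped a footprint in either replicate.

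Signals were on the whole slightly lower in replicate 2: the median log2 ratio to replicate 1 was -0.14 over the 68349 shared sites, with a spread of 0.30 (SD). Centred on that median, the site at the start of Chrne stood at -0.88, a ratio of 2.04 from replicate 1 to replicate 2 before centring. Of 19412 shared sites with a signal within 1.5 times its own in replicate 1, 142 (0.732%) lay as far from the median. This share is a description, since the site was picked as the most different of the family's shared sites. The site 2.97 kb upstream of Chrne stood at 0.57, which 5.98% of sites of similar signal reached, and the site at its 3′ end at 0.33. The other 8 shared sites of the family lay between -0.23 and 0.24, within 1 SD. Sequencing instruments, a pair of them, are named only for replicate 2. Whether replicate 1 used others is not known, so an effect of the instrument cannot be told apart from one of the replicate.

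**Figure D3:**
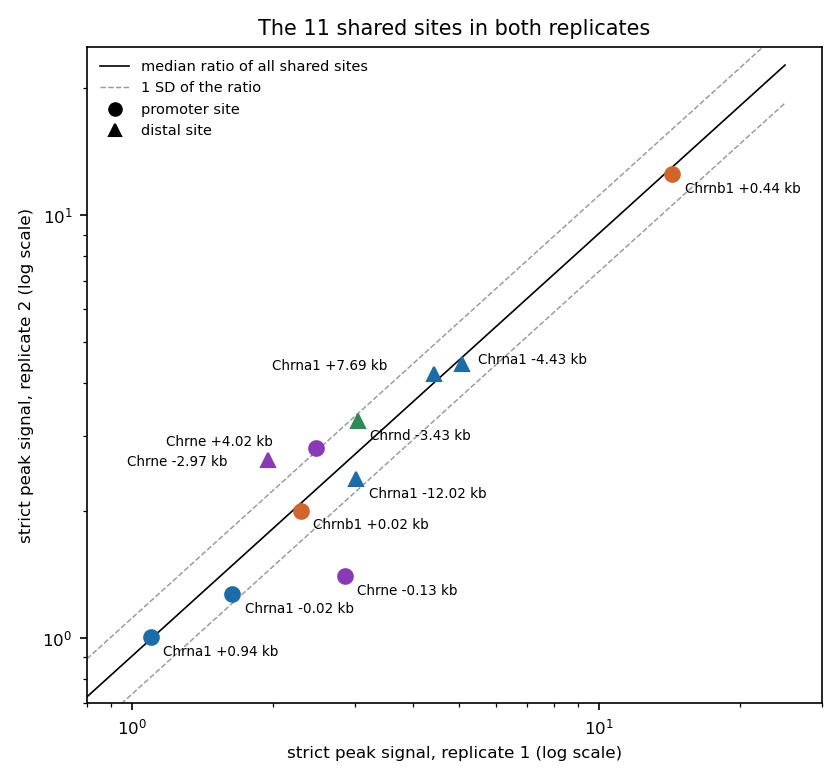
Strict peak signal in replicate 1 (horizontal) against replicate 2 (vertical), both on log scales, for the 11 sites shared by both replicates, named by gene and distance from the principal start. The solid line is the median ratio over all shared sites and the dashed lines lie 1 SD from it; the start of Chrne (-0.13 kb) falls below them, and its sites at -2.97 kb and +4.02 kb lie above.

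Chrnb1 (chr11:69784036-69795943, minus strand) had openness in a pair of shared sites and no distal site. The weaker, chr11:69795801-69796040, covers the start and measured 2.30 and 2.00. The stronger lay 442 bp downstream, in intron 2, and is the source of the high promoter value of the gene. It measured 14.3 and 12.5, above 88.8% and 88.9% of all promoter peaks, with a smallest FDR of 6.05e-77 and 6.17e-79. The 3 GGGCGG copies and the CATTCC before the start lay in no footprint, and the whole site at the start held 0 footprints in both replicates, although 89.4% and 88.6% of shared promoter sites held at least 1. The intronic site held 4 and 5 footprints, and its overlapping pair of GGGCGG copies lay in a footprint of both replicates. Its sequence is shown because most of the openness of the gene is there.
Chrnb1 intron 2 (chr11:69795401-69795600, minus strand): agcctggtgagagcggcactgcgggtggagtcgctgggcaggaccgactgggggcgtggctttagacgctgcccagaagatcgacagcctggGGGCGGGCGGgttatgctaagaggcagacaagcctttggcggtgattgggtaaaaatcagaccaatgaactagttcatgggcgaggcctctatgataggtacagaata
The last bases of exon 2 open this stretch, and the rest is intron. Fgf11, a fibroblast growth factor family gene read on the same strand, has its next start 5.77 kb upstream of Chrnb1, and its promoter measured 3.05 and 2.81.

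Chrna1 (chr2:73563215-73580338, minus strand) had the most sites, 12 in any list and 5 shared strict ones. The site at its start, chr2:73580250-73580460, measured 1.64 and 1.27. A smaller promoter site 937 bp downstream, in intron 1, measured 1.10 and 1.00. Of the E-box pair at the start, the copy at 90 bp overlapped only the edge of a footprint, in replicate 2. The copy at 42 bp overlapped none in either replicate. The intronic site is shown because it holds a CAGCTG, a TEAD site and an overlapping pair of CCGGAA in 119 bp.
Chrna1 intron 1 (chr2:73579342-73579460, minus strand): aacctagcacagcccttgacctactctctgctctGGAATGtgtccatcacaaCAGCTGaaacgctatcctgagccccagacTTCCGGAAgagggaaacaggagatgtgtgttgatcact
The TEAD site overlapped a footprint in both replicates. The CAGCTG overlapped only the edge of a footprint, in replicate 2 alone, and the CCGGAA pair overlapped none in either replicate.

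The strongest sites of Chrna1 were distal, that is more than 1000 bp from any protein-coding start and nearest to that of Chrna1. The site 4.43 kb upstream measured 5.07 and 4.44, above 94.2% and 93.4% of distal peaks. The site 7.69 kb downstream, in intron 4, measured 4.44 and 4.21, above 92.4% and 92.7%. Both exceeded the site at the start of the gene in each replicate, with no overlap of the values. The site 12.0 kb upstream, between genes, measured 3.02 and 2.38. Intron 7 held a site 13.2 kb downstream that measured 1.70 in the strict list of replicate 1 and 0.977 in the permissive list of replicate 2. The other 6 distal sites of Chrna1, each missing from at least 1 strict list, measured between 0.399 and 0.876. Of the 21911 protein-coding genes, 4389 had 3 or more shared distal sites.

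The 2 strongest distal sites of Chrna1 and that of Chrnd are shown because each had a core of the CTCF motif under a footprint of both replicates. CTCF is a zinc finger protein that binds insulators and loop anchors. Capitals mark this core and GGGCGG or CCGGAA where present.
Chrna1 4.43 kb upstream (chr2:73584681-73584860, minus strand): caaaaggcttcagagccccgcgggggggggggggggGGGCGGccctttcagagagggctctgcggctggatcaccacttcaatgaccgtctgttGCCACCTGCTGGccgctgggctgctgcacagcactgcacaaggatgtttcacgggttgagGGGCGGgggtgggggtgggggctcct
Chrna1 intron 4 (chr2:73572561-73572740, minus strand): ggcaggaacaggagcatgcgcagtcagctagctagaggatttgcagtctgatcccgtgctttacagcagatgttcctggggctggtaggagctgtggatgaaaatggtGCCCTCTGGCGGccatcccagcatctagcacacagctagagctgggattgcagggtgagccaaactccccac
Chrnd 3.43 kb upstream (chr1:87187121-87187300, plus strand): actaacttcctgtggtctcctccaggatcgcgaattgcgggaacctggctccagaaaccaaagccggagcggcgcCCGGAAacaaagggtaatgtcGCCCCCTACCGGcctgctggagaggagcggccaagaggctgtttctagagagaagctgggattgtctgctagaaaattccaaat
The site 4.43 kb upstream of Chrna1 matched the core as first searched, as did 14.1% of all shared distal sites in the 150 bp around their midpoint. It also lies at the start of Chrna1os, an RNA transcribed from the other strand, whose annotated starts are 79 and 89 bp from the midpoint of the site. The other 2 sites matched a core with 1 fewer fixed base, which was chosen after their sequences were seen. The looser core was present in 19.5% of all shared distal sites, and its count in the family is not read against that share because it was fitted to these sites. The core as first searched was present in 1 of the 5. The site 6.47 kb upstream of Chrne, absent from the strict list of replicate 1, held the first core under a footprint of both replicates too. A match is a description of letters, and CTCF binding was not measured.

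Distal sites were thus uneven within the family. At least 1 shared distal site within 50 kb was assigned to 3 of 5 members, Chrna1, Chrnd and Chrne, where 49.2% of all genes had one. Chrna1 took 3 of the 5 sites, and it also has the longest stretch of genome nearest to its start, 46.0 kb. That stretch is 8.55 kb for Chrnd, 8.83 kb for Chrng, 10.1 kb for Chrnb1 and 11.4 kb for Chrne. With starts of all annotated genes, noncoding ones included, Chrna1 kept 1 shared distal site, as many as Chrnd and Chrne. The upstream site of Chrne, chr11:70622061-70622260, held a CAGCTG that overlapped only the edge of a footprint, in replicate 1 alone.

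Across the 11 shared sites, footprints numbered 26 in replicate 1 and 30 in replicate 2. Over all shared sites the mean per site was 3.60 and 3.51 at promoter sites, and 2.93 and 2.70 at distal sites. Of the promoter sites of the family, only the intron 2 site of Chrnb1 was above that mean, in both replicates. The distal sites were above theirs, except that of Chrnd in replicate 1. All but 1 site, at the start of Chrnb1, held a footprint in each replicate. At least 1 was held by 89.4% and 88.6% of all shared promoter sites, and by 97.5% and 97.0% of distal ones. CAGCTG was present in 3 of the 6 shared promoter sites and 1 of the 5 distal ones, against 12.1% and 25.4% of all such sites. CCGGAA was present in 2 promoter sites and 1 distal site, against 14.6% and 3.70%. None of the 11 sites held a match to the MEF2, MEF3, AP-1 or glucocorticoid receptor motif in that window. With 11 sites in 4 genes these counts are descriptions.

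Other genes of the synapse show how the subunit genes compare. Of the 11 genes for neuronal nicotinic subunits, which form receptors in nerve cells, 4 had a shared promoter site. The highest were Chrnb2 (4.63 and 3.69), Chrna7 (3.99 and 3.47) and Chrna4 (1.25 and 1.18), and Chrna2, Chrna3, Chrna6, Chrna10 and Chrnb3 had no strict promoter peak. Chrnb2 and Chrna7, the highest of the neuronal genes, thus had higher promoter signals in both replicates than Chrna1, Chrnd, Chrng and Chrne of muscle. The median of the 11 neuronal genes, with genes without a peak at 0, was 0 and 0.631. It was below that of the 5 receptor genes in both replicates. The 12 genes for synapse signals, receptor clustering and synaptic enzymes all had a shared promoter site, with medians of 3.38 and 3.77. Their highest were Agrn, the nerve signal for clustering (13.9 and 11.0), Ache, acetylcholinesterase (8.31 and 8.45), and Utrn, a membrane scaffold (7.70 and 6.93). The 10 listed transcription regulators also all had one, led by Hdac4, a histone deacetylase that responds to denervation (34.8 and 26.5), Etv5, an ETS factor (25.5 and 20.2), and Gabpa, the DNA-binding subunit of GABP (10.3 and 8.41). The median over all protein-coding genes, with genes without a peak at 0, was 2.99 and 2.85, and that of the 5 receptor genes 1.64 and 1.27.

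**Figure D4:**
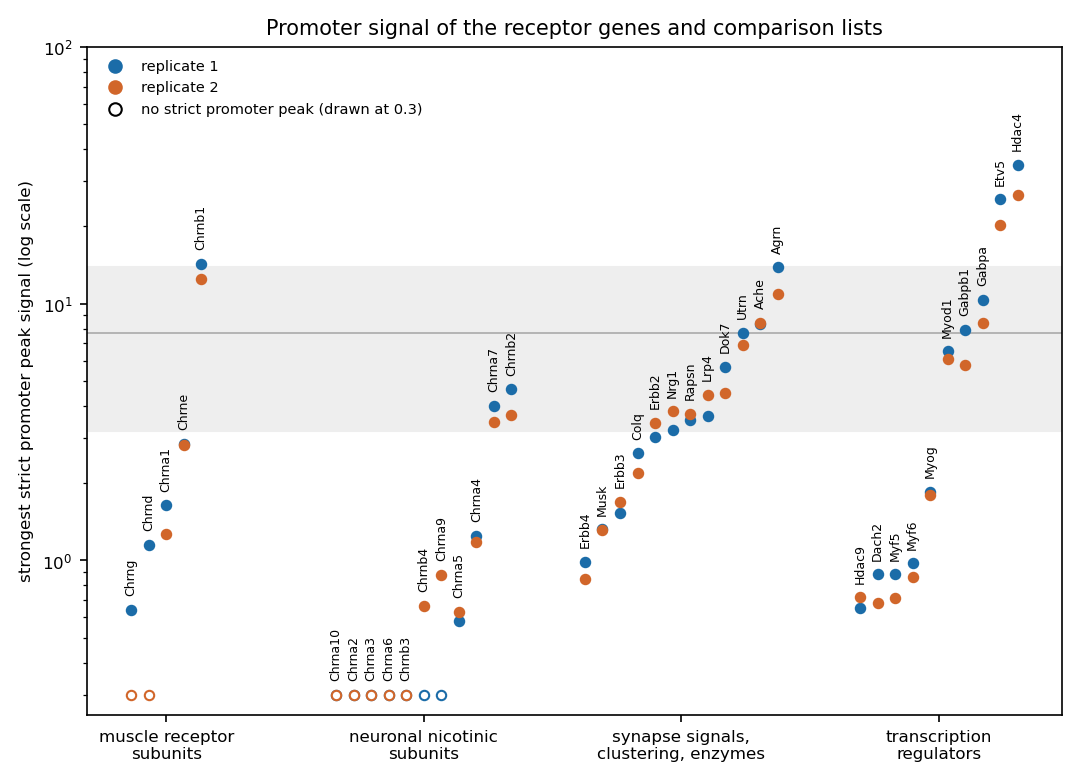
Signal of the strongest strict promoter peak (vertical axis, log scale) for each gene of 4 lists, with blue for replicate 1 and orange for replicate 2. The grey band spans the 25th to 75th percentile and the line the median of genes with a promoter peak in replicate 1; open circles at the bottom have no strict promoter peak. Chrnb1 is level with Agrn, and the other 4 receptor genes lie under the band.

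Each gene's pattern was compared over 3 measures, the promoter signal in the 2 replicates and the number of shared distal sites. All were taken on a log2 scale after an offset was added. For the signals this offset was the smallest strict signal of the library. By Euclidean distance the closest genes were Gprc5a and Uchl1 for Chrna1, Donson and 2310057M21Rik for Chrnb1, and Plekhg4 and Tmem140 for Chrnd. For Chrng they were Sla and Fam19a4, and for Chrne Dhrs7b and Calhm2. Donson, for example, measured 14.3 and 12.5 with 0 distal sites, as Chrnb1 did. For Chrne the promoter signals compared come from different sites of the gene, and Chrnd and Chrng had no strict promoter peak in replicate 2.

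The libraries and the tissue were checked as follows. The strict lists held 87558 and 79562 peaks with a median signal of 1.53 in each, and no read totals are given in the sources. Shared promoter sites were present for 9 of 9 markers of skeletal muscle fibres, 5 of 5 of endothelium, 4 of 4 of fibroblasts, 3 of 5 of Schwann cells, 4 of 6 of neurons, 0 of 4 of macrophages and 0 of 4 of cardiac muscle. Against the 63.7% of all genes, the counts for Schwann cells and neurons were near the background, those for macrophages and cardiac muscle below it, and those for muscle fibres, endothelium and fibroblasts above it. The part of other cell types in the signal at the receptor genes was not tested.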

How the data were processed

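Both DNase-seq libraries are the replicates of 1 group, per the labels. The deposited peak lists (strict and permissive, mm10) carry the authors' signal per peak in whole multiples of a fixed step, about 142 steps per unit in replicate 1 and 150 in replicate 2 (100% of values within 0.05 of a step). Per base, the authors deposited a q-value of the cut rate where it was below 0.05, and the deposited footprints share 1 FDR of 0.01. The aligner, callers and signal scaling: not given in the sources used here.

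Peaks overlapping by 1 bp were merged, and sites holding a peak of each replicate were kept. Starts came from GENCODE M21, using all annotated transcripts of protein-coding genes. Sites centred within 1000 bp of a start were promoter sites, and others went to the nearest start within 50 kb. The principal start is that of the main coding transcript. Motifs were exact matches on both strands, in 150 bp around site midpoints or 200 bp before starts. A motif overlapped a footprint if they shared at least 1 bp. Percentiles are shares of genes or peaks with a lower signal. There is no test, since there is 1 group. Named genes were the members, their neighbours, the top 3 of each list with those lacking a promoter peak, and the 2 most alike genes. Members and lists were chosen with earlier results of these data known. Overlaps, assignment and motif matching were tested on simulated data. Tools were Python 3.11.15, pysam 0.24.0 and samtools 1.23.1.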

Additional observations from a re-analysis of the deposited data

How the results depend on the processing

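Results were recomputed with 50% reciprocal overlap, the permissive list, the stronger 50% of peaks, windows of 500 and 2500 bp, assignment within 20 and 100 kb, starts of all annotated genes, the sum over promoter peaks and each replicate alone, and, chosen after seeing the data, starts of protein-coding transcripts or principal starts only. The median promoter signal over the 5 genes, 1.45, became 2.50 as a sum over promoter peaks. The number of genes with a promoter site was 3 to 5 when a replicate was left out, with 5 without replicate 2. Shared distal sites, 5 in all, became 11 in the permissive list and 3 with starts of all annotated genes. In the latter, those of Chrna1 went from 3 to 1 and those of the other genes did not change. Footprints in the shared sites, 28 as the mean of the replicates, became 42.5 in the permissive list. Among single genes, the promoter signal of Chrne went from 2.84 to 2.13 with a 500 bp window or without retained-intron starts. The promoter signals of Chrnd and Chrng could not be judged this way, since neither had a strict peak in replicate 2 and the spread between replicates exceeded the mean. There was no comparison of groups to reverse. No paired analysis was possible because there is only 1 group. With 2 libraries and no read totals, peak lists alone limit what counts as closed.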
